A study of Homo sapiens with 10 samples.

Results

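The 10 messages NET1, RASSF3, INPP1, KIF1C, TRAK2, DYNLL2, PKP4, KANK2, PALLD and CYB5R3, listed as known from the protrusions of other cells, were followed in MDA-MB-231, a human triple-negative breast cancer line. They were chosen by gene symbol, each symbol had 1 entry in the deposited gene table, and together they make up 10 of its 26134 genes. The 10 libraries comprised 5 made from protrusions and 5 made from the bodies of the corresponding cells, all from untreated cells of the same line with no added agent named in the labels. Single cells caught in an array on a microfluidic chip grew protrusions for 6 h, were fixed for 15 min in 4% paraformaldehyde on ice, and were cut into protrusions and bodies by laser. The labels give neither the number of cells per library nor separate cultures, so a p-value reflects the spread among these 10 libraries alone, and that spread may be technical. Where a library holds fragments of more than 1 cell, fewer contributing cells and less RNA per cell cannot be told apart.

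In migrating fibroblasts and other cells, a group of messages collects at the tips of protrusions, where the APC protein and stable microtubules are needed to keep them. GA-rich stretches in the 3′UTR, the untranslated end of the message, carry the localization signal of RAB13 and NET1, and the kinesin KIF1C is known to carry such messages, its own included. The encoded proteins have different tasks, from control of the small GTPase RhoA to transport, adhesion and redox metabolism.

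The purine-rich stretches of the 3′UTRs are shown because this kind of sequence is tied to the localization of RAB13 and NET1. For each gene the 30 bases of the 3′UTR with the most purines (A or G) and at least 8 G were taken from a GENCODE 29 transcript, on the strand of the message. Purines are in capitals and pyrimidines in lower case. The 3 messages that rose in protrusions come first, then KANK2, which fell, INPP1, whose window was the poorest in purines, and RAB13 for comparison.
NET1: GAGttAAAAGAAAAAGAGAGGAAAAGAGAG
RASSF3: GAGtAGGAGGGcccccAAGAAAGGGAGGAA
KIF1C: AGAAGcGGGGAtGcGAGGGGAGGtAGAGGG
KANK2: AtGGAtGGAGGAAGAGGGAGAGGAAAAAAA
INPP1: AGtGAAtAttGtGctGttAGtGctGcttGA
RAB13: AGGAAGAGAGAGGAAGGGAGAAGGGAGAGG

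These windows began 960 bases after the stop codon in NET1 (chromosome 10), 1340 in RASSF3 (chromosome 12), 1099 in KIF1C (chromosome 17), 319 in KANK2 (chromosome 19), 207 in INPP1 (chromosome 2) and 164 in RAB13 (chromosome 1). RAB13 had 30 purines of 30, a run found in 0.862% of 18911 human 3′UTRs searched the same way. NET1, DYNLL2, KANK2 and PALLD had 28, which 5.40% of all 3′UTRs reach. TRAK2 had 27 (11.5% reach as many), KIF1C 26 (21.6%), PKP4 25 (35.1%), RASSF3 24 (48.9%), CYB5R3 23 (62.0%) and INPP1 15 (95%). Long 3′UTRs hold such windows more often. Among 3′UTRs within a factor of 1.5 of their length, 28 purines were reached by 5.62% for NET1, 7.91% for KANK2, 7.97% for PALLD and 18.3% for DYNLL2, whose 3′UTR runs over 6257 bases. The count of TRAK2 was then reached by 22.2%, that of KIF1C by 49.1% and that of RASSF3 by 80.1%. A window is a description of the letters, and no localization signal was tested here.

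Expression is given as scaled TPM, that is, TPM, a transcript abundance already divided by transcript length and set to a fixed library total, multiplied by 1 factor per library. The read depth is unknown, so no counting interval is given. Summed over genes, a library held between 737343 and 1103254 in protrusions and between 967421 and 1390253 in cell bodies. Protrusion libraries held 9124 to 10471 genes at 1 or more, and cell body libraries 11035 to 11519. Protrusion replicate 2 stood apart, with 24.3 on the first principal component against 58.8 to 72.2 in the other protrusions and -77.8 to -39.0 in cell bodies, and with 25.2 of the nuclear RNA MALAT1 against 0.288 to 5.06 in the other protrusions. Of 7 RNAs retained in the nucleus 4 were tested and 3 were lower in protrusions (MALAT1, NEAT1 and PVT1), while TUG1 had a log2 difference of -0.04. The call of PVT1 held in 12 of 21 alternatives and ended when protrusion 1 or 4 or cell body 2 or 5 was left out (limma adjusted p up to 0.0789). Together the 7 summed to between 16.8 and 46.8 in protrusions and between 77.1 and 173 in cell bodies. The 8 markers of mesenchymal breast lines were all tested and 1 fell, the galectin LGALS1, at 4120 to 7330 in protrusions and 6870 to 11800 in cell bodies, while VIM lay at 450 to 736 in protrusions and 546 to 713 in cell bodies. Of 7 luminal markers in the table, 3 were tested and not called: KRT19 at 1.04 to 8.71 in protrusions and 1.46 to 5.82 in cell bodies, EPCAM at 0.787 to 5.25 in protrusions and 1.54 to 4.18 in cell bodies, and ERBB2 at 0.992 to 4.75 in protrusions and 1.84 to 3.38 in cell bodies. Of those not tested, the receptor PGR was at 0 in all protrusions and at most 0.01 in cell bodies. CDH1 was at 0 to 0.107 in protrusions and 0.745 to 1.38 in cell bodies, with no overlap. GATA3 was at 0.295 to 1.64 in protrusions and 0.552 to 0.987 in cell bodies. FOXA1 was at 0 to 0.75 in protrusions and 0.223 to 0.565 in cell bodies. Among 5 blood markers, PTPRC, HBA2 and CD3E were at 0 in all cell bodies and at most 0.872 in protrusions. The other 2, both also made by other cells, were called lower in protrusions: the lysozyme LYZ, at 0.06 to 1.66 in protrusions and 9.68 to 20.3 in cell bodies, and CD68, at 12.6 to 21.7 in protrusions and 20.3 to 26.0 in cell bodies. Of 3 keratinocyte markers, KRT10 was called lower, at 69.6 to 85.7 in protrusions and 94.2 to 112 in cell bodies. KRT14 was at 0 in all protrusions and at most 0.087 in cell bodies, and FLG was at most 0.037 in protrusions and 0.07 in cell bodies. The part of these markers in the results was not tested.

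Of these messages 3 rose in protrusions, 1 fell, and 5 did not pass the test. NET1, RASSF3 and KIF1C were higher in protrusions by 2.40 to 3.51 times in their means, and KANK2 was at 0.0966 times its cell body level. TRAK2 had the largest ratio of means, 6.04, but lay below the filter for testing. A gene was tested if it reached 1 in 5 or more of the 10 libraries. The test was limma on log2(scaled TPM + 1), with Benjamini-Hochberg adjustment over all 10894 genes tested and a threshold of 0.05, and 9 of the 10 messages passed this filter. Of all tested genes, 4.28% were called higher in protrusions and 21.5% lower. This fit left the pairing by replicate number unused. With the number as a block 5 messages were higher and 1 lower, beside 13.0% and 25.4% of all tested genes. The median log2 difference, protrusion minus cell body, was 0.46 over the 9 tested messages and -0.03 over all tested genes. RASSF3 and KIF1C owed their place among the tested genes mainly to the protrusions, RASSF3 with 5 protrusions and 1 cell body at 1 or more and KIF1C with 5 and 3. A gene that passes in this way tends to differ, so the count of 3 is a description. The 21.5% called lower likewise holds genes that passed mainly through the cell bodies. NEAT1 reached 1 in 1 protrusion and 5 cell bodies.

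**Figure D1:**
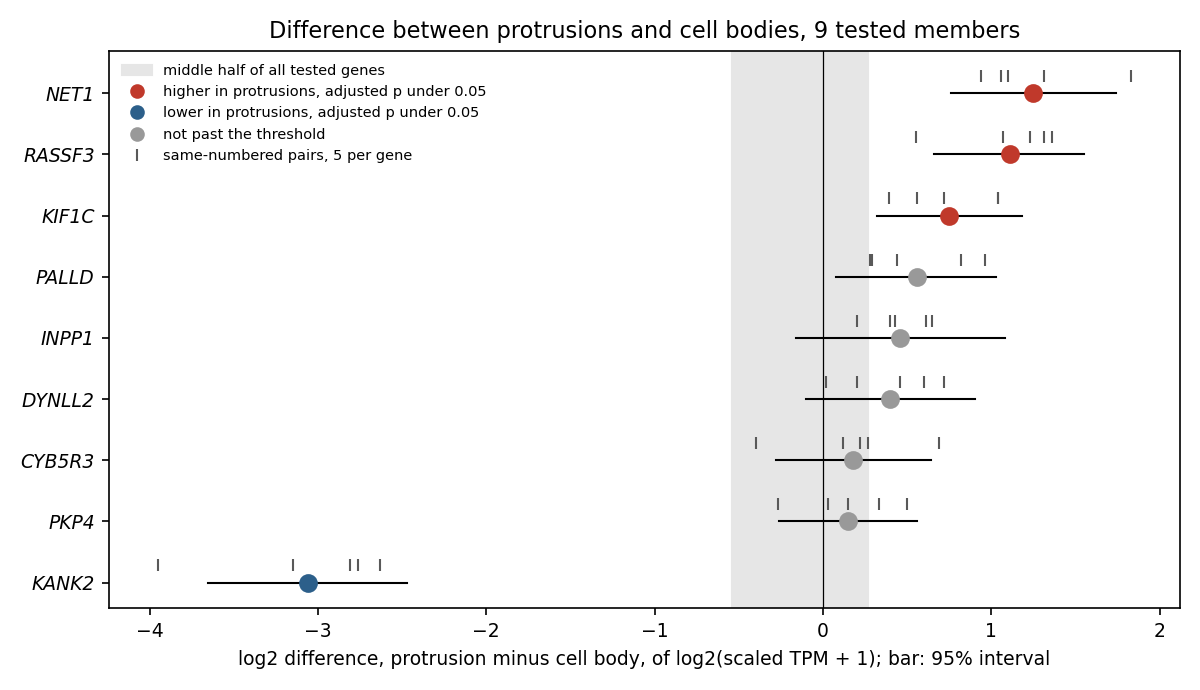
Log2 difference of the 9 tested messages, protrusion minus cell body, on the log2(scaled TPM + 1) scale. Large points are limma estimates with their 95% intervals, ticks the 5 same-numbered pairs of each gene, and the grey band the middle of all tested genes from the lower quartile (-0.54) to the upper quartile (0.27). NET1, RASSF3 and KIF1C lie to the right of the band with all their pairs, and KANK2 lies far to the left with all of its pairs.

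Signalling proteins are encoded by NET1, RASSF3 and INPP1. NET1, an exchange factor that activates RhoA, had 6.27, 6.93, 7.17, 7.49 and 13.8 scaled TPM in protrusions 1 to 5, against 2.50, 2.20, 3.27, 2.96 and 3.17 in cell bodies 1 to 5. Every protrusion was above every cell body, and protrusion 5 stood well above the other protrusions. The log2 difference was 1.25 ± 0.23 (SE, limma adjusted p = 6.54e-04), with a 95% interval of 0.76 to 1.74, and only 0.129% of all tested genes had a larger one. Without protrusion 5 the log2 difference of NET1 was 1.07 (limma adjusted p = 9.27e-04).

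RASSF3, an adaptor of the Ras-association domain family, had 3.33, 4.54, 1.84, 2.56 and 3.92 scaled TPM in protrusions, against 0.841, 1.15, 0.938, 0.697 and 0.981 in cell bodies. The groups did not overlap, which held for 3.46% of tested genes with protrusions above and 18.4% with protrusions below. Its log2 difference was 1.11 ± 0.21 (SE, limma adjusted p = 8.30e-04). The pairs ranged from 0.55 in pair 3, whose protrusion was the lowest of the 5, to 1.36 in pair 2. In GENCODE 29, 12.5% of the exonic bases of RASSF3 are shared with genes on the opposite strand, and no source used here gives the strand setting of the authors' counting, so reads of the partners cannot be told apart in that stretch.

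INPP1, a phosphatase of inositol phosphate turnover, had 8.25, 5.53, 13.8, 15.5 and 13.7 scaled TPM in protrusions, against 6.00, 4.67, 9.95, 9.57 and 8.61 in cell bodies. Libraries 1 and 2 were low and libraries 3 to 5 high in both groups, so the groups overlapped although the protrusion was the higher library of all 5 pairs. A difference in that direction in every pair was found in 17.0% of tested genes, and one in the other direction in 26.4%. The log2 difference of 0.46 ± 0.29 did not pass (SE, limma adjusted p = 0.283), with a 95% interval of -0.16 to 1.08. With the replicate number as a block the same difference passed (limma adjusted p = 0.0367), in a fit that called 13.0% of all tested genes higher in protrusions and 25.4% lower.

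**Figure D2:**
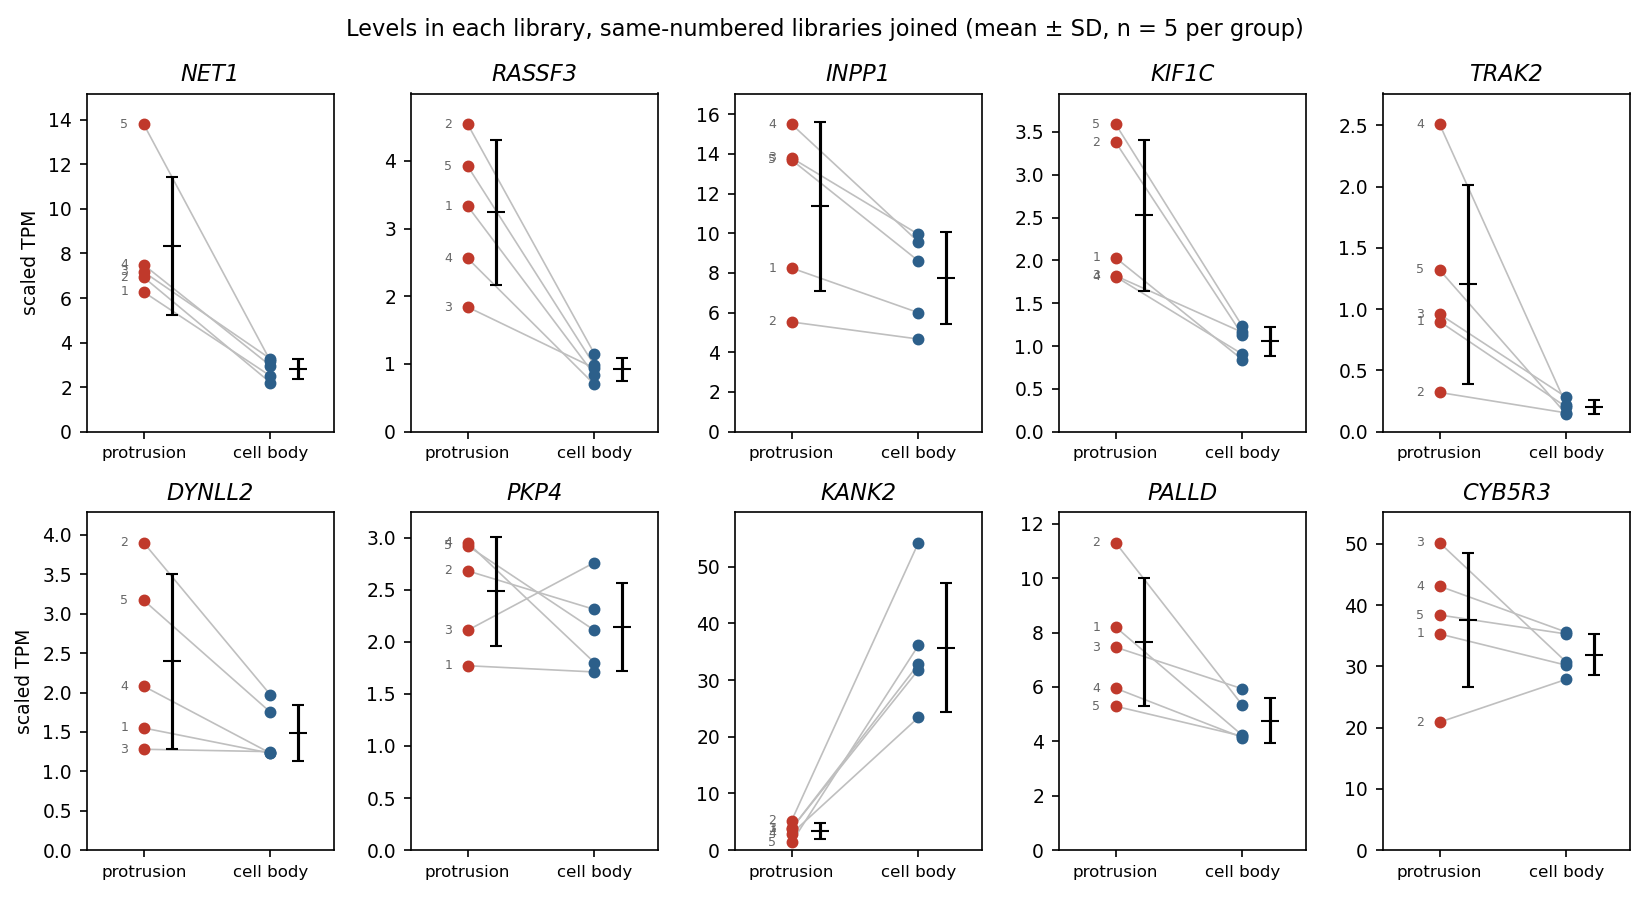
Scaled TPM of the 10 messages in each library, protrusions left of cell bodies, with same-numbered libraries joined and the number beside each protrusion. Bars give mean ± SD (n = 5 libraries per group), each panel has its own axis from 0, and the groups do not overlap for NET1, RASSF3, KIF1C, TRAK2 and KANK2.

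Transport along microtubules is the task of KIF1C, TRAK2 and DYNLL2. KIF1C, a kinesin motor, had 2.03, 3.38, 1.82, 1.81 and 3.59 scaled TPM in protrusions, against 0.841, 1.13, 1.16, 0.905 and 1.23 in cell bodies. Protrusions 2 and 5 were the highest, and the lowest protrusion was still above the highest cell body. The log2 difference was 0.75 ± 0.20 (SE, limma adjusted p = 0.0114), and 1.75% of all tested genes had a larger one.

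TRAK2, an adaptor that links mitochondria to motors, had 0.899, 0.320, 0.959, 2.51 and 1.32 scaled TPM in protrusions, against 0.201, 0.153, 0.281, 0.218 and 0.142 in cell bodies. Protrusion 4 was the highest and protrusion 2 the lowest, yet all 5 protrusions were above all 5 cell bodies. At these levels only 2 libraries reached 1 and the gene was not tested in the main fit. In the fit with no filter, which tested 26096 genes and called 1.69% higher in protrusions and 15.2% lower, the log2 difference was 0.80 ± 0.22 (SE, limma adjusted p = 0.0319). The pseudocount of 1 understates the change of so low a gene, whose ratio of means was 6.04.

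DYNLL2, a light chain shared by dynein and myosin V motors, had 1.55, 3.90, 1.28, 2.08 and 3.17 scaled TPM in protrusions, against 1.23, 1.97, 1.25, 1.23 and 1.75 in cell bodies. Libraries 2 and 5 were the highest in both groups, the groups overlapped, and the pairs differed by 0.02 to 0.72 on the log2 scale. The log2 difference of 0.40 ± 0.23 did not pass (SE, limma adjusted p = 0.246), with a 95% interval of -0.10 to 0.90. It did not pass with the replicate block either (limma adjusted p = 0.117).

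Junctions, adhesions and actin are served by PKP4, KANK2 and PALLD. PKP4, an armadillo-repeat protein of cell junctions, had 1.77, 2.68, 2.11, 2.95 and 2.92 scaled TPM in protrusions, against 1.71, 2.31, 2.76, 1.80 and 2.11 in cell bodies. The groups overlapped over most of their range, and in pair 3 the protrusion was the lower library. A log2 difference of 0.15 ± 0.19 did not pass (SE, limma adjusted p = 0.632), and its 95% interval of -0.26 to 0.56 does not reach the differences of NET1 or RASSF3.

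KANK2, a scaffold that binds talin and lies around focal adhesions, had 3.84, 5.23, 3.81, 2.93 and 1.40 scaled TPM in protrusions, against 31.8, 54.2, 32.8, 23.4 and 36.1 in cell bodies. All protrusions lay far below all cell bodies, and library 2 was the highest of both groups. The log2 difference was -3.06 ± 0.27 (SE, limma adjusted p = 1.09e-06), and 3.28% of all tested genes had a lower one. Pairs ranged from -2.63 to -3.95. The nuclear RNAs MALAT1 and NEAT1 were lower in protrusions too, by log2 differences of -4.09 and -1.74, and the part of nuclear RNA in the level of KANK2 was not tested.

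PALLD, an actin-bundling scaffold of stress fibres, had 8.20, 11.3, 7.46, 5.95 and 5.29 scaled TPM in protrusions, against 4.22, 5.33, 5.93, 4.14 and 4.19 in cell bodies. The groups overlapped in a narrow range, where cell bodies 2 and 3 lay above protrusion 5, and each protrusion was above the cell body of its own number. The log2 difference of 0.56 ± 0.22 did not pass (SE, limma adjusted p = 0.0854), with a 95% interval of 0.08 to 1.03 before adjustment. With the replicate block it passed (limma adjusted p = 0.0329).

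CYB5R3, the NADH-dependent reductase of cytochrome b5 on the endoplasmic reticulum and mitochondria, had 35.3, 20.9, 50.2, 43.1 and 38.4 scaled TPM in protrusions, against 30.2, 27.9, 30.7, 35.6 and 35.3 in cell bodies. Protrusion 2 was the lowest of all 10 libraries and protrusion 3 the highest. Its log2 difference was 0.18 ± 0.21 (SE, limma adjusted p = 0.601), with a 95% interval of -0.28 to 0.64. Without protrusion 2 it was 0.37 and without protrusion 3 it was 0.06, and neither passed (limma adjusted p = 0.116 and 0.870).

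If the values are TPM, as was inferred from them, they are per length and the messages can be set side by side within a group. In protrusions the order of mean levels was CYB5R3 (37.6 ± 10.9), INPP1 (11.4 ± 4.25), NET1 (8.33 ± 3.09), PALLD (7.65 ± 2.37), KANK2 (3.44 ± 1.41), RASSF3 (3.24 ± 1.07), KIF1C (2.53 ± 0.881), PKP4 (2.49 ± 0.523), DYNLL2 (2.40 ± 1.11) and TRAK2 (1.20 ± 0.813) scaled TPM (SD, n = 5). Of the 9 neighbouring pairs in this order 7 overlapped in their ranges, and the gaps lay between CYB5R3 and INPP1 and between PALLD and KANK2. In cell bodies KANK2 led with 35.6 ± 11.4 scaled TPM, followed by CYB5R3 (32.0 ± 3.39), INPP1 (7.76 ± 2.31), PALLD (4.76 ± 0.821), NET1 (2.82 ± 0.457), PKP4 (2.14 ± 0.422), DYNLL2 (1.49 ± 0.352), KIF1C (1.05 ± 0.171), RASSF3 (0.922 ± 0.169) and TRAK2 (0.199 ± 0.0558). There 6 of 9 neighbours overlapped. NET1 thus held rank 3 in protrusions and rank 5 in cell bodies, and KANK2 rank 5 in protrusions and rank 1 in cell bodies. The place of KANK2 rests on scaled TPM alone. The authors' deposited log2 mean abundance, over no stated libraries, was 4.73 for KANK2 and 6.88 for CYB5R3. In protrusions all 10 were low beside RAB13, the best-known message of this kind, which averaged 247 ± 45.5 scaled TPM there. In cell bodies RAB13 averaged 40.3 ± 8.34, and the ranges of KANK2 and CYB5R3 overlapped its range of 29.7 to 52.5. RAB13 shares 24.8% of its exonic bases with an overlapping gene on the same strand.

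Each message was next set against a related gene within the same library, where the factor of the library plays no part apart from the pseudocount of 1. In all, 8 such log2 ratios could be computed, and the difference between groups was tested by two-sided exact permutation of the libraries over every possible division into 5 and 5, with Benjamini-Hochberg adjustment over the 8. NET1 relative to ECT2, another RhoA exchange factor, which also acts in cytokinesis, averaged -0.26 ± 0.88 in protrusions and -5.72 ± 0.66 in cell bodies (SD, n = 5 each). Its difference of 5.46 came mainly from ECT2, which itself fell by 4.21 on the log2 scale (exact permutation p = 0.00794, the smallest that these divisions can give, adjusted p = 0.0212). INPP1 relative to BPNT1, a phosphatase of the same lithium-sensitive family, was higher in protrusions by 1.27 (exact permutation p = 0.00794, adjusted p = 0.0212), and BPNT1 itself fell by 0.81 (limma adjusted p = 0.00547). PKP4 relative to its close relative CTNND1 averaged 0.65 ± 0.22 in protrusions and 0.18 ± 0.096 in cell bodies (SD, n = 5 each), which differ by 0.47 (exact permutation p = 0.00794, adjusted p = 0.0212), although neither gene passed alone (CTNND1 -0.33, limma adjusted p = 0.226). Each related gene was the first of an ordered list to pass the filter for testing. Further relatives that passed were not used: ARHGEF2 for NET1, PKP2 for PKP4, and IMPA1 and IMPA2 for INPP1. For the ratios of NET1, INPP1 and PKP4 given here the groups did not overlap. In the paired exact sign-flip test on the replicate numbers none of the 3 passed (adjusted p = 0.0833 each), as 5 pairs cannot give an unadjusted p below 0.0625.

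The other 5 ratios did not pass after adjustment. KIF1C relative to the kinesin KIF13A was higher in protrusions by 0.93 (exact permutation p = 0.0317, adjusted p = 0.0508), RASSF3 relative to RASSF1 by 1.31 (exact permutation p = 0.0317, adjusted p = 0.0508), and DYNLL2 relative to its close homologue DYNLL1 by 0.73 (exact permutation p = 0.0397, adjusted p = 0.0529). DYNLL1 itself had a log2 difference of -0.33 (limma adjusted p = 0.0787), which passed with the replicate block (limma adjusted p = 0.00429) and turned to 0.03 with equal library sums. Each of these 3 ratios was higher in the protrusion of all 5 pairs. TRAK2 relative to TRAK1 differed by 0.48 (exact permutation p = 0.206, adjusted p = 0.236), with protrusion 2 the lowest of all 10 libraries. For CYB5R3 relative to CYB5R1 the difference was -0.23 (exact permutation p = 0.317, adjusted p = 0.317), with 2 of 5 pairs higher in the protrusion. RASSF7, a relative of RASSF3, and CYB5R4, a relative of CYB5R3, also passed the filter and were not used. KANK2 and PALLD had no relative above the filter.

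**Figure D3:**
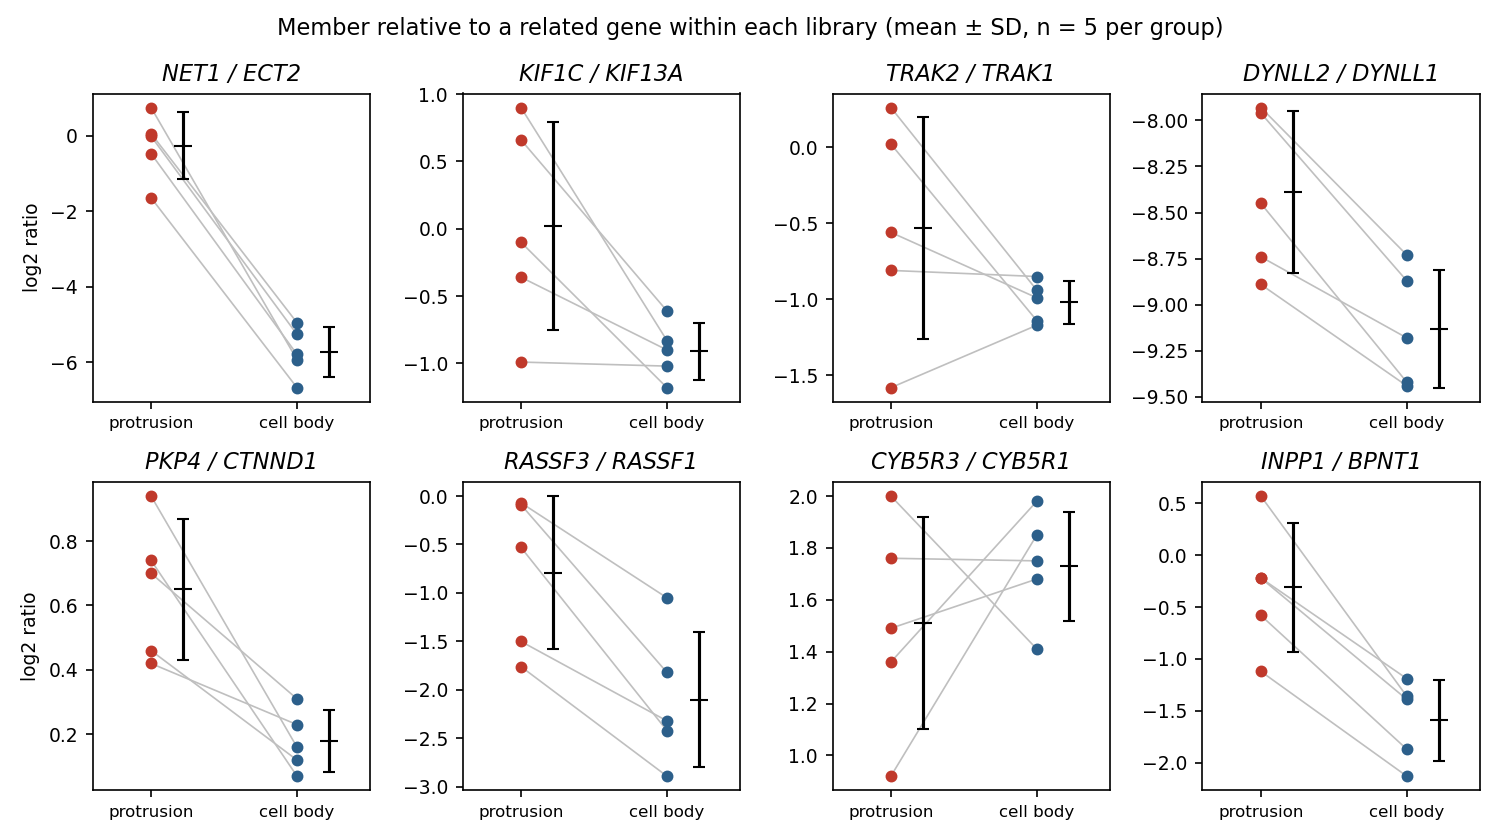
Log2 ratio of each message to a related gene in the same library, (value + 1) over (value + 1), protrusions left of cell bodies, same-numbered libraries joined, with mean ± SD (n = 5 per group) and an axis of its own in each panel that does not start at 0. The groups are separate for NET1, PKP4 and INPP1, and for CYB5R3 the lines cross in both directions.

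Around each message other than NET1 a list of partners and relatives was counted, each list with its own message included. These counts stand beside 4.28% of all tested genes called higher in protrusions and 21.5% called lower, and several of them, such as 6 lower of 25 around KIF1C, lie near those shares. Of 25 kinesin and mRNA transport genes, KIF1C and the kinesin light chain KLC1 (0.86, limma adjusted p = 0.0287) rose and 6 fell, among them the RNA-binding proteins ELAVL1 (-2.33) and IGF2BP1 (-1.51, at most 0.320 scaled TPM in protrusions). KLC1 had 2 entries under its symbol, and only the one with the higher mean was used. The list median was -0.02, against -0.03 over all tested genes. Around TRAK2, 10 genes of mitochondrial transport were tested, with a median of 0.06. The outer membrane fusion GTPase MFN2 rose, at 5.74 ± 1.12 scaled TPM in protrusions and 3.04 ± 0.514 in cell bodies (SD, n = 5 each). Its homologue MFN1 fell by 4.83 on the log2 scale, at 1.82 to 14.0 in protrusions and 80.9 to 210 in cell bodies, and the mitochondrial myosin MYO19 fell by 1.33. Of 14 genes of dynein and its light chains, the dynactin subunit DCTN1 rose (0.91, limma adjusted p = 0.0258) and the myosin MYO5A fell (-1.10, limma adjusted p = 0.0130), with a median of 0.16. MYO5A reached 1 in 1 protrusion and 5 cell bodies, and IGF2BP1 in 0 protrusions and 5 cell bodies. Both owed their place among the tested genes to the cell bodies, so these falls are descriptions.

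Among 14 tested RASSF and Hippo pathway genes, RASSF3 and the GTPase HRAS (0.76, limma adjusted p = 0.0277) rose, and MOB1B (-0.90), the kinase STK4 (-1.12) and 1 other gene fell, with a median of -0.06. Of 13 inositol phosphate enzymes, INPP5B (-1.58) and BPNT1 fell (median 0.03). MOB1B and INPP5B each reached 1 in 0 protrusions and 5 cell bodies. They were tested through the cell bodies alone, so their falls are descriptions. In the cortical adhesion complex around KANK2, 5 of 10 tested genes fell, with a median of -0.48. PHLDB1, a cortical partner of this complex, had 1.07 to 2.32 scaled TPM in protrusions and 6.01 to 10.7 in cell bodies, a log2 difference of -1.77. Of 16 actin bundlers and their binding partners, the adhesion protein ZYX rose (0.64, limma adjusted p = 0.0173) and PDLIM5 (-1.35), profilin PFN1 (-0.61) and 1 other gene fell, with a median of 0.24. No limma call in either direction was made among 6 junction genes around PKP4 (median 0.10), where 0 reached an unadjusted p under 0.05 and 0 passed with the replicate block, but 2 were called higher after quantile normalization. Nor was one made among 12 genes around CYB5R3 (median 0.27, with single differences of 0.08 to 0.56), where 2 higher genes reached an unadjusted p under 0.05 and 2 passed with the replicate block. No limma call towards protrusions was made around INPP1, where 0 genes reached an unadjusted p under 0.05 in that direction and 1 passed with the block, or around KANK2, where both counts were 0. After quantile normalization 2 genes around INPP1 and 1 around KANK2 were called higher, and around CYB5R3 the 3 scalings called 2 to 3 higher. Over all 10894 tested genes quantile normalization called 1903 higher and the 3 scalings 1132 to 1903.

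Several of these counts moved with the fit. With the replicate block, which called 13.0% of all tested genes higher, 4 genes around KIF1C were higher in protrusions, 2 around TRAK2, 3 around DYNLL2, 3 around RASSF3 and 4 around PALLD. Under the 3 scalings 4 to 5 genes around KIF1C were higher, 2 to 3 around TRAK2 and 3 to 5 around DYNLL2. Around RASSF3 2 to 3 were higher, and around PALLD 3 to 6. Over all 10894 tested genes these scalings called 1132 to 1903 higher, against 466 as reported, so more calls were made in general. Calls towards cell bodies became fewer in places. Lower under the 3 scalings were 3 to 6 around KIF1C, 0 to 1 around DYNLL2 and 1 to 2 around RASSF3. Around KANK2 4 were lower, around INPP1 1 to 2 and around PALLD 1 to 3. Over all tested genes these scalings called 1879 to 2143 lower, against 2340 as reported. Leaving out protrusion 5 or cell body 1, 3 or 4 ended the call of KLC1 (limma adjusted p up to 0.0789), protrusion 5 or cell body 1, 4 or 5 that of DCTN1 (up to 0.0736), and protrusion 1, 3 or 4 or cell body 1 or 5 that of HRAS (up to 0.0732). Without protrusion 4 or 5 or cell body 1, 2 or 5 the call on the log2 difference of STK4 ended (up to 0.0625), as it did with equal sums (0.0664) and after quantile normalization (0.0784). With no filter the calls of KLC1 (limma adjusted p = 0.0534), DCTN1 (0.0572), HRAS (0.0564) and STK4 (0.0518) ended too. BPNT1 was not called with libraries brought to equal sums (limma adjusted p = 0.166), PFN1 neither then (0.0833) nor after quantile normalization (0.308), and MYO5A not after quantile normalization (0.0727).

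Genes with the most similar profile were found as the root-mean-square distance of log2(scaled TPM + 1) over the 10 libraries, each profile centred on its own mean, among 8938 coding genes. NET1 was nearest to ANP32B (distance 0.26) and MDK (0.27), KIF1C to RABL6 (0.10) and PKMYT1 (0.12), and RASSF3 to PKMYT1 and DESI1 (0.21 each). KANK2 was nearest to SLC25A51 and RUNDC1 (0.25 each), which had log2 differences of -3.01 and -2.89. INPP1 was nearest to DPH2 (0.087) and SURF4 (0.11), PALLD to C9orf123 (0.13) and C6orf1 (0.16), DYNLL2 to SF3A1 (0.12) and MYH9 (0.13), PKP4 to ABLIM3 (0.084) and CUL4B (0.10), and CYB5R3 to FHL2 (0.12) and RNPS1 (0.15). All these values are distances on a log2 scale, and a gene with a small difference has near neighbours more easily.

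The authors' deposited table gives a log2 fold change of cell body relative to protrusion, opposite in sign to the differences above, and no source used here gives the libraries behind it. In that table RASSF3 held rank 10 of all genes by p-value (log2 fold change -1.82), TRAK2 rank 15 (-2.37) and NET1 rank 37 (-1.48). Their false discovery rates were 0.259, 0.498 and 0.566. KIF1C held rank 67 and KANK2 rank 1108, each with a false discovery rate of 0.724. Over the 10 messages the authors' false discovery rate ran from 0.259 (RASSF3) to 0.937 (PKP4), so none was below the threshold used here. For 8 of the 10 messages the log2 fold change of the authors' deposited table had the direction and about the size of the log2 ratio of mean scaled TPM, such as -1.24 and -1.26 for KIF1C, -0.70 and -0.68 for PALLD and -2.37 and -2.59 for TRAK2. KANK2 had 1.06 in the authors' deposited table, against a log2 ratio of means of 3.37, and CYB5R3 had 0.33 against -0.23, which is the opposite direction. The mean abundance in the authors' deposited table, taken per scaled TPM and per kilobase of transcript, was 0.263 for KANK2, below all but 6.27% of 8759 tested coding genes, whose median was 0.978. For the other 9 messages it lay between 0.548 and 1.59. The authors' mean abundance and the scaled TPM of KANK2 therefore differ by more than those of the other 9, and which of them reflects the message was not tested.

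Set beside the protrusion differences, the purine windows did not follow one order. RAB13, with 30 purines, had a log2 difference of 2.59, NET1, with 28, had 1.25 and KANK2, also with 28, had -3.06. PALLD and DYNLL2, again with 28, had 0.56 and 0.40, and neither passed. RASSF3, with the second-largest difference of the 9, had 24, the median over the 3′UTRs that held a window with at least 8 G. INPP1, with 15 purines in a 3′UTR of 263 bases, had 0.46. KIF1C, with 26, had 0.75, PKP4, with 25, had 0.15 and CYB5R3, with 23, had 0.18. TRAK2, with 27, had 0.80 in the fit with no filter. These are single values for the 10 messages and RAB13, given with no test.

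**Figure D4:**
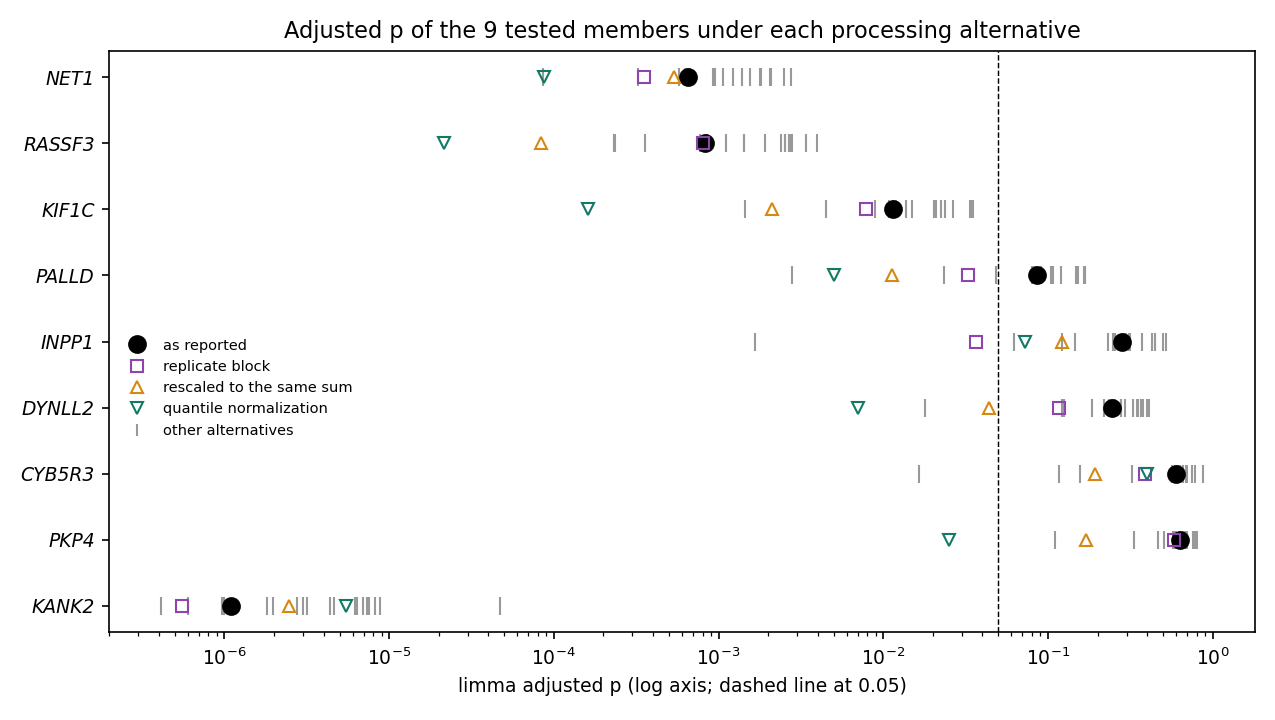
Limma adjusted p of the 9 tested messages (log axis) as reported and under each processing alternative, with ticks for alternatives that have no symbol of their own and the threshold of 0.05 as a dashed line. NET1, RASSF3, KIF1C and KANK2 stay left of the line wherever they were tested, and the other 5 lie on both sides of it.

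The calls of NET1 and KANK2 held in all 22 alternatives, and those of RASSF3 and KIF1C in the 21 in which they were tested. Of all calls made, 16.6% were towards protrusions as deposited. This share was 44.9% when the libraries were given equal sums, 50.3% under quantile normalization and 34.6% under median-of-ratios factors, and these scalings moved the median log2 difference of all tested genes from -0.03 to 0.24, 0.24 and 0.09. Relative to that median most of the messages moved little, while CYB5R3 came down to the median under quantile normalization. NET1 stood 1.27 above it as deposited and 1.28 to 1.36 above it under the 3 scalings, RASSF3 1.13 and 1.08 to 1.27, KIF1C 0.78 and 0.72 to 0.91, PALLD 0.58 and 0.60 to 0.66, INPP1 0.49 and 0.48 to 0.54, and DYNLL2 0.43 and 0.38 to 0.57. PKP4 stood 0.18 above the median as deposited and 0.15 to 0.32 under the scalings, CYB5R3 0.21 as deposited and -0.02 to 0.29, and KANK2 -3.03 as deposited and -3.07 to -3.00. With the replicate block 5 of the 9 messages were higher in protrusions and 1 lower, as PALLD and INPP1 joined NET1, RASSF3 and KIF1C.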

How the data were processed

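The 10 messages and all gene lists were chosen with earlier results of these data known. Messenger RNA was measured in 5 protrusion and 5 cell body libraries, numbered 1 to 5 in each group. Polyadenylated RNA was amplified with the SMART-Seq v4 kit, per the labels' protocols. Per the submitters' processing notes the tools included cutadapt 1.10, FastQC 0.10.1, HISAT2 and StringTie 1.3, while the genome build, annotation, strand setting and test remain not given in the sources used here. In the table, the deposited expression values are taken as TPM multiplied by 1 factor per library, a unit inferred from the values. The authors' table also deposited a log2 fold change, a log2 mean abundance, a p-value and a false discovery rate, per the file headers.

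Values were used as deposited, with no count model. Limma 3.58.1 in R 4.3.3 was fitted with a mean-variance trend, without a block, to log2(value + 1) of the 10894 genes at 1 or more in at least 5 of 10 libraries, and adjusted p come from Benjamini-Hochberg over all of them. The fit and the exact tests were tested on simulated data. Changes in the simulated fit were placed only on genes with higher cell body levels than NET1, RASSF3 and KIF1C, with no pairing of libraries. After subtracting group means, same-numbered libraries correlated over genes at 0.236, 0.578, 0.392, 0.329 and 0.264, so the numbers were taken to pair the libraries and blocked values stand beside results they change. No libraries held identical values. Named were the 10 messages, the relative of each ratio, RAB13, the tested nuclear RNAs, up to 2 genes per direction and list with the smallest p, and the 2 coding genes of most similar profile. The list around NET1 is not reported here. Alternatives were 3 scalings, pseudocounts of 0.1 and 0.5, other filters, coding genes alone, robust fitting, the block and each library left out. The 3′UTR search was chosen after the values had been seen. It used the principal transcript of a gene where GENCODE 29 tags one and the transcript with the longest 3′UTR where it does not, as for RASSF3. Other steps used scipy 1.17.1, pandas 2.3.3 and numpy 2.4.6 under Python 3.11.15, and figures matplotlib 3.10.9.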

Additional observations from a re-analysis of the deposited data

Results flagged for a closer look

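NET1 in protrusion replicate 5, at 13.8 scaled TPM, lay far from the other 4 protrusions, which ran from 6.27 to 7.49, while the cell bodies ran from 2.20 to 3.27. Its gap to the nearest protrusion, divided by the range of the 5 protrusions, exceeded Dixon's critical value of 0.71 for 5 values. In all, 36 groups of 5 values were examined, and chance flags about 1 in 20 groups. KLC1, at 30.5 in the same library against 9.99 to 15.5 in the other protrusions, is a gene around KIF1C whose call ended without that library.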

How the results depend on the processing

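TPM keeps no read depth, so how far depth limits low messages such as TRAK2 is unknown. Of the results behind the text, KANK2 stayed the only message lower in protrusions in all 22 alternatives.

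The number of messages higher in protrusions, 3 as reported, was 5 with libraries rescaled to equal sums, 6 after quantile normalization, 5 with the replicate block, 7 with the block and equal sums together, 1 with 1 or more asked of all 10 libraries, where RASSF3 and KIF1C could not be tested, and 3 to 4 with single libraries left out. Over all tested genes the number higher, 466 as reported, was 1533, 1903 and 1132 under equal sums, quantile normalization and median-of-ratios scaling, 1412 with the replicate block, 3675 with the block and equal sums, and 257 to 649 with single libraries left out, the lowest without cell body replicate 5. The number lower, 2340, was 3975 with no filter, 626 with 1 or more in all 10 libraries and 1521 among coding genes alone, where different numbers of genes were tested, and 2136 to 2576 with single libraries left out.

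With equal sums, DYNLL2 (0.62) and PALLD (0.86) passed, after quantile normalization DYNLL2 (0.81), PKP4 (0.56) and PALLD (0.90), and with median-of-ratios scaling PALLD (0.68). The replicate block made INPP1 (0.46) and PALLD (0.56) pass, and with equal sums also DYNLL2 (0.62), CYB5R3 (0.53), INPP1 (0.78) and PALLD (0.86). It changed no other call of the 9 messages. Without protrusion replicate 5 PALLD passed, in a range of 0.42 to 0.66 over single libraries left out.

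The ratio of KIF1C to KIF13A passed at a pseudocount of 0.1 (1.41) and with none (1.49), as did that of RASSF3 to RASSF1 (1.89 and 2.00), the ratio with none having been chosen after seeing the data. With single libraries left out these ratios ran from 0.71 to 1.18 and from 1.11 to 1.57, and that of TRAK2 to TRAK1 from 0.28 to 0.74, with the largest of each passing. Without both libraries numbered 2 TRAK2 to TRAK1 (0.71) and RASSF3 to RASSF1 (1.39) passed. In the paired exact sign-flip test (replicate block), NET1 to ECT2 (5.46), PKP4 to CTNND1 (0.47) and INPP1 to BPNT1 (1.27) had adjusted p = 0.0833, with 0.0625 the smallest unadjusted p that 5 pairs allow.

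Among genes not called as reported, the sign turned for KIF13A (0.07, 0.23 and 0.07 with equal sums, quantile normalization and the block with equal sums), DYNLL1 (0.03 with equal sums, with and without the block, though the block alone called it lower), CTNND1 (0.09 after quantile normalization), RASSF1 (0.10, 0.12 and 0.10 as for KIF13A, and 0.01 without cell body replicate 5, in a range of -0.51 to 0.01 over single libraries left out) and TUG1 (0.17, 0.38, 0.05 and 0.17 under the 3 scalings and the block with equal sums, 0.05 without protrusion replicate 4, and 0.01 without either protrusion replicate 5 or cell body replicate 3, in a range of -0.11 to 0.05 over single libraries left out). The cause of these changes was not tested.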
